A study of Rattus norvegicus with 21 samples.

Results

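Insulin-secreting cells cut their prohormones inside secretory granules, and 10 genes of that process are described here: Pcsk1, Pcsk2, Pcsk1n, Cpe, Scg2, Scg3, Scg5, Chga, Chgb and Ptprn. They were chosen by name as encoding the processing enzymes, their binding partners, the granins and a granule membrane protein, and all 10 were found among the 32750 genes of the mRNA table. The cells were INS-1 832/13, a clonal rat insulinoma line that carries a human insulin transgene and secretes insulin when glucose rises. Of the mRNA libraries, 4 are labelled untreated and 5 are labelled as cells kept for 24 h in 1 µM inorganic arsenic (iAs). The series also holds small RNA libraries of iAs, cadmium and manganese exposure, which were not used here. Whether replicates are separate cultures is not stated in the labels. The p-values therefore measure only how these libraries spread, which may be technical.

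Prohormones such as proinsulin enter the regulated secretory pathway in the trans-Golgi network, where they condense into granules together with the granins, acidic proteins that bind calcium. As the granule is acidified by a proton pump, the convertases PC1/3 (from Pcsk1) and PC2 (from Pcsk2) cut the prohormone after pairs of basic residues, and carboxypeptidase E (from Cpe) trims those residues off. ProSAAS (from Pcsk1n) inhibits PC1/3, and 7B2 (from Scg5) accompanies proPC2 to the granule and is needed for its activation. IA-2 (from Ptprn) spans the granule membrane and is known as an autoantigen of type 1 diabetes.

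The deposited values are normalized counts, that is, counts per gene that the authors normalized with DESeq2 to make libraries comparable. Column totals lay between 51009800 and 55869159 normalized counts, and the raw depth is not given in the sources used here. The 10 genes together took 3.25% to 3.59% of a library labelled untreated and 3.32% to 3.63% of one labelled iAs, so their summed share overlapped between the groups. Hmox1, an oxidant response gene that arsenic is known to induce, ran against the labels, with 12135 to 16234 normalized counts in the libraries labelled untreated and 1175 to 2337 in those labelled iAs. Of 7 tested oxidant and metal response genes 5 fell and 0 rose, beside 14.9% and 15.1% of all 14410 genes tested. Besides Hmox1, those that fell were Mt1 (-2.04), Nqo1 (-1.07), Gclm (-1.06) and Gclc (-0.69). Txnrd1 (-0.01) and Slc7a11 (-0.82) were not called (limma adjusted p = 0.89 and 0.41). Whether the labels of the 2 groups were exchanged was not tested, and if they were, each direction below would be reversed. Lane 3 held all untreated and lane 4 all iAs libraries, and the effects of lane and exposure cannot be told apart. The beta cell markers summed to 1807760 to 2312510 normalized counts in libraries labelled untreated and 1439480 to 1974390 in those labelled iAs. Most of this was Ins1, at 1579190 to 2086080 and 1238010 to 1753900. The markers ranged down to Ucn3, with a mean of 22.5 in libraries labelled untreated. A label names liver as the tissue, while the hepatocyte gene Alb was listed at 0 in each library except iAs replicate 5, at 2.01 normalized counts. Not all hepatocyte genes were this low, as 7 of the 11 found reached a mean of 10 normalized counts. Among them were Ass1 and Fgb, with means of 1331 and 637 in libraries labelled untreated.

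Promoter stretches of the genes on which the results below turn are shown first, since 5 of them fell and 1 rose in the libraries labelled iAs. They were taken from RefSeq (build GRCr8, matched by symbol; the deposited values were made on rn6), where 8 of the 10 genes had an entry covering 250 bases before to 50 bases after the transcription start. Pcsk1 and Chga had none. Capitals mark each match to TGACG on either strand, the core of the cyclic AMP response element, and positions count back from the transcription start. In Scg2 the capitals also mark matches to TTCAGCACC and GGACAGC, the 2 parts of the element bound by the repressor REST.
Ptprn, chr9:84204924-84205023, minus strand, -200 to -101: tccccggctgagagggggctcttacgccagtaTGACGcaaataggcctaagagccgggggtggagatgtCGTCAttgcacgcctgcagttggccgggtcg
Scg3, chr8:85322515-85322594, minus strand, -110 to -31: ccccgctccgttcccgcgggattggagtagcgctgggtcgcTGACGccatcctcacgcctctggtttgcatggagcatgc
Pcsk2, chr3:151333838-151333917, plus strand, -100 to -21: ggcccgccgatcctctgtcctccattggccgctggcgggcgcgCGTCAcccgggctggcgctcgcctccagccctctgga
Scg2, chr9:88256907-88257006, minus strand, -140 to -41: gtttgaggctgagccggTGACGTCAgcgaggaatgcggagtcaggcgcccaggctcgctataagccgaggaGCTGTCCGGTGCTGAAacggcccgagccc
Cpe, chr16:29796497-29796576, plus strand, -210 to -131: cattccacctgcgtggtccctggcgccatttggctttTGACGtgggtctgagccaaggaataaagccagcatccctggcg
Scg5, chr3:121042796-121042875, minus strand, -80 to -1: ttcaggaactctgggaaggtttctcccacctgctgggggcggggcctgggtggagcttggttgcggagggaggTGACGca
Chgb, chr3:140496572-140496651, plus strand, -140 to -61: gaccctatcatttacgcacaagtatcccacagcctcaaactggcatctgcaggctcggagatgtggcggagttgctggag

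The TGACG core was in 6 of the 8 promoters, against 21.2% of the 33469 promoters of the table. The 6 were Ptprn, Scg3, Pcsk2, Scg2, Cpe and Scg5, which include genes that fell and 1 that rose. Chgb, shown as a gene that was not called, and Pcsk1n had no match in this window. The full palindrome TGACGTCA, which counts as 2 overlapping cores, was in Scg2 alone among the 8 and in 1.83% of all promoters. TTCAGCACC was in 0.356% and GGACAGC in 6.59% of all promoters. Scg2 held both on the strand opposite to the gene, side by side with no base between them, from -69 to -54. So did Ptprn2, the paralogue of Ptprn, from -28 to -13. Whether parts spaced this way form a full element was not tested. These motifs were chosen after the sequences were seen, and a match is a description of the letters, not of a bound site.

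Ptprn differed most among the 10 genes, and Scg3, Pcsk2, Scg2 and Cpe were lower as well, while Chga and Scg5 were higher. Of the 9 genes whose mean reached 10 normalized counts, 5 fell and 2 rose in the libraries labelled iAs (limma on log2 of the normalized count + 1, adjusted p under 0.05 over all genes tested). Of all 14410 genes tested, 14.9% fell, 15.1% rose and 30.0% were called in either direction. The same 7 genes did not overlap between the groups, 5 lower and 2 higher, against 12.9% of all genes lower and 13.0% higher without overlap, 25.9% in all. Over the 9 tested members, called or not, the log2 differences ran from -0.78 to 0.36 with a median of -0.19. The median over all genes was -0.000696.

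**Figure D1:**
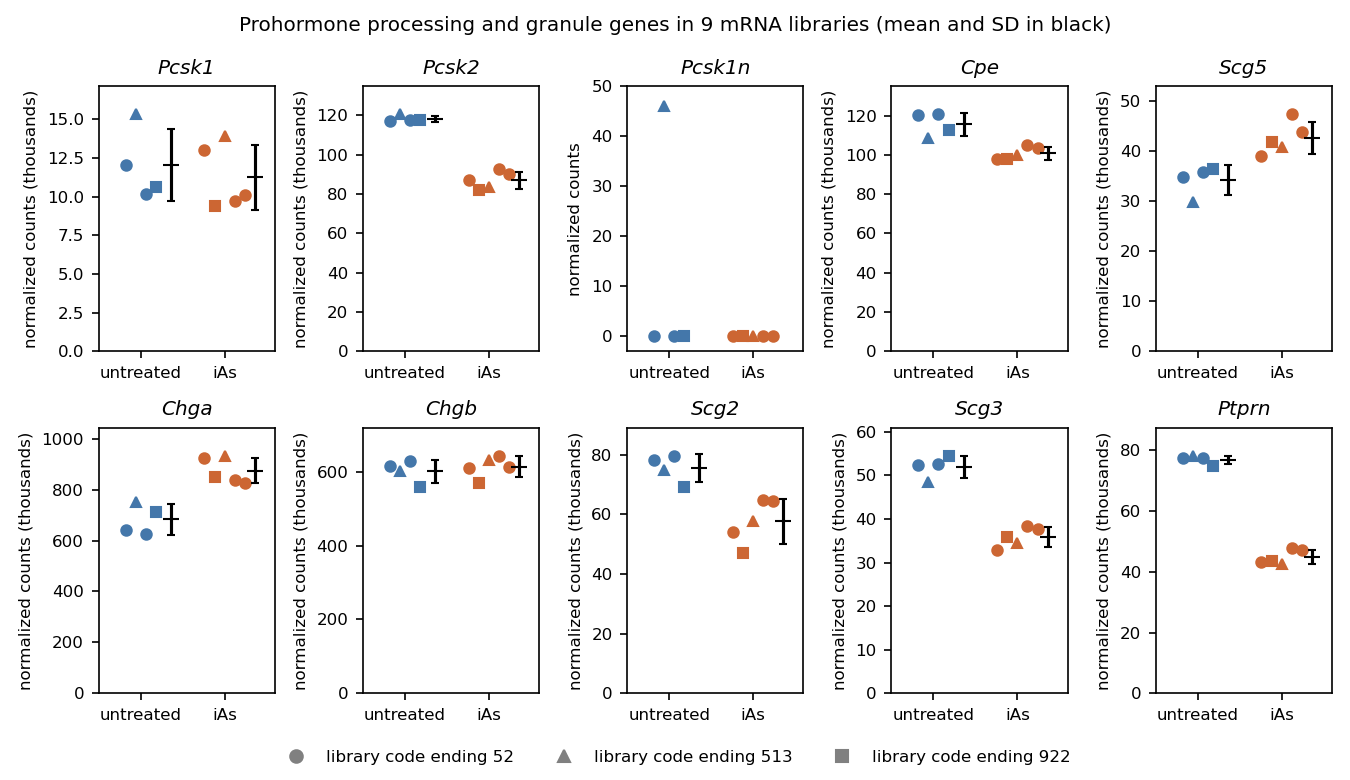
Normalized counts of the 10 genes in 4 libraries labelled untreated (blue) and 5 labelled iAs (orange); each point is a library, its shape gives the ending of the library code, and black marks give mean and SD. Ptprn, Scg3, Pcsk2, Scg2 and Cpe sit lower and Chga and Scg5 higher in iAs with no overlap, and Pcsk1n is at 0 in all libraries except untreated replicate 2.

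**Figure D2:**
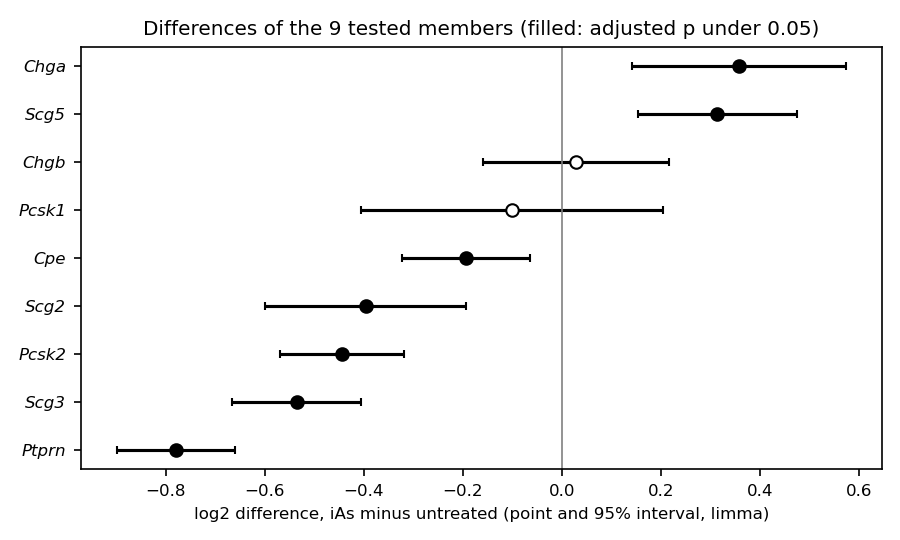
Log2 difference (iAs minus untreated) of the 9 tested genes, with the limma point estimate and its 95% interval; filled points have an adjusted p under 0.05. Ptprn lies lowest at -0.78 and Chga highest at 0.36, and the intervals of Chgb and Pcsk1 cross 0.

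Of the convertase genes Pcsk2 fell and Pcsk1 was not called, and a difference between them was not shown by their ratio, given below. Pcsk2, which encodes the convertase that completes proinsulin and proglucagon cleavage, had 117067, 120393, 117714 and 117666 normalized counts in untreated replicates 1 to 4. In iAs replicates 1 to 5 it had 86987, 82036, 83460, 92474 and 89883. Each iAs library lay under each untreated one, with means of 86968 ± 4343 (SD, n = 5) and 118210 ± 1485 (SD, n = 4). Pcsk2 fell by 0.44 in log2 (SE 0.06, limma adjusted p = 1.7e-04), to 0.735 times the untreated level.

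Pcsk1, the convertase that makes the first proinsulin cut, had 12016, 15307, 10197 and 10648 normalized counts in untreated replicates 1 to 4. Its values in iAs replicates 1 to 5 were 13026, 9394, 13916, 9700 and 10133. The groups overlapped throughout, and the log2 difference of -0.10 (SE 0.14, 95% interval -0.41 to 0.20) was not called (limma adjusted p = 0.63). It was 0.02 without untreated replicate 2. Among the 9 tested of the 10 granule genes Pcsk1 also varied most within groups. Its coefficient of variation was 19.2% in untreated and 18.5% in iAs libraries, against 1.26% and 4.99% for Pcsk2. The highest libraries were untreated replicate 2 at 15307 and iAs replicate 3 at 13916, which share an ending of the library code.

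The ratio of Pcsk1 to Pcsk2 within a library does not depend on how libraries were scaled. It was 0.087 to 0.127 in untreated and 0.105 to 0.167 in iAs libraries, which overlapped. The difference of 0.34 in log2 had a two-sided exact permutation p of 0.111 (adjusted p = 0.111 over 5 ratios). Untreated replicate 2 had the highest untreated ratio. Without that library the difference was 0.46 and the exact permutation p 0.0357, the smallest the remaining libraries can give. Of the 12 alternatives run for this ratio, the other 11 left it uncalled.

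Pcsk1n, the gene of the PC1/3 inhibitor, was listed at 0 in 8 of the 9 libraries and at 46.1 normalized counts in untreated replicate 2. It was under the limit on low values, so it was not tested, and no ratio of Pcsk1 to Pcsk1n was formed. An exact 0 in such a table can be a failed estimate.

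Scg5, the gene of the PC2 chaperone, moved opposite to Pcsk2. It had 34909, 29933, 35849 and 36530 normalized counts in untreated replicates 1 to 4 and 39163, 41811, 40845, 47371 and 43867 in iAs replicates 1 to 5. Each iAs library lay above each untreated one, with means of 42611 ± 3158 (SD, n = 5) against 34305 ± 2990 (SD, n = 4). Scg5 rose by 0.31 in log2 (SE 0.07, limma adjusted p = 0.0071). The call was lost among libraries whose code ends in 52 alone (2 untreated, 3 iAs; 0.29, adjusted p = 0.0547).

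The ratio of Pcsk2 to Scg5 was 3.22 to 4.02 in untreated and 1.95 to 2.22 in iAs libraries. The ranges did not overlap, and the group means differed by -0.76 in log2 (two-sided exact permutation p = 0.0159, the smallest this design can give, adjusted p = 0.0198 over 5 ratios). Pcsk2 was lower and Scg5 higher in each iAs library than in any untreated one. The lack of overlap and the p-value were therefore fixed by those results and add no evidence to them. Protein was not measured.

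Cpe, the carboxypeptidase gene, had 120440, 108314, 120547 and 112510 normalized counts in untreated replicates 1 to 4. In iAs replicates 1 to 5 it had 97928, 97740, 100032, 104978 and 103659. The groups did not overlap, but the gap between the lowest untreated and the highest iAs library was small. Cpe fell by 0.19 in log2 (SE 0.06, limma adjusted p = 0.027), the smallest called difference of the 10 genes. The call was lost without untreated replicate 1 (adjusted p = 0.0862) or 3 (0.0893) and without iAs replicate 1 (0.0546), 2 (0.0623) or 3 (0.0599).

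**Figure D3:**
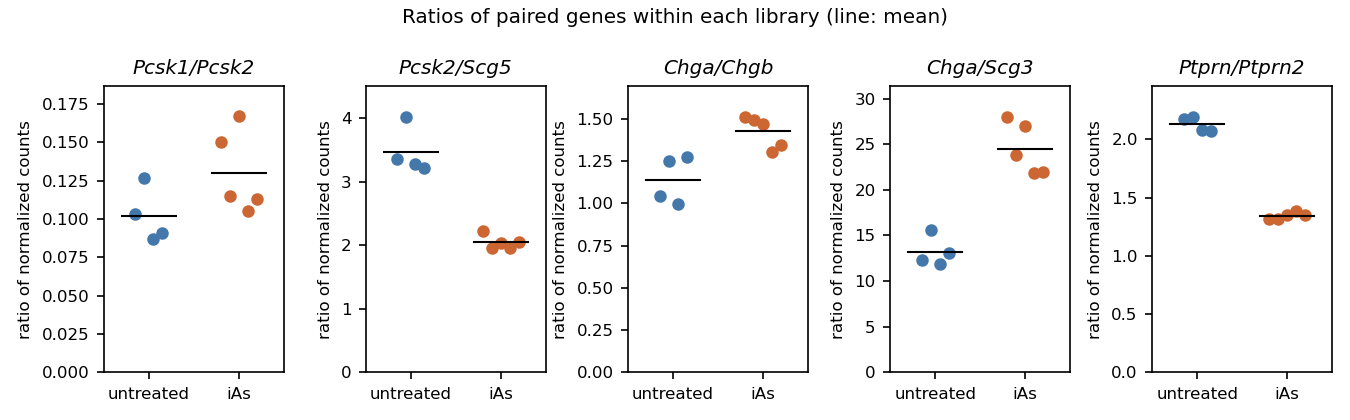
Ratio of normalized counts of 5 gene pairs within each library, untreated (blue, 4 libraries) and iAs (orange, 5 libraries), with a line at the mean of each group. The ratios Pcsk2/Scg5 and Ptprn/Ptprn2 lie lower and Chga/Chgb and Chga/Scg3 higher in iAs with no overlap, and Pcsk1/Pcsk2 overlaps.

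The granins, the matrix proteins of the granule, went in different directions. Chga encodes chromogranin A, the precursor of several peptides and a marker of neuroendocrine cells. It had 641424, 752532, 626553 and 711288 normalized counts in untreated replicates 1 to 4 and 923690, 850522, 930088, 837541 and 825853 in iAs replicates 1 to 5. Chga was higher in each iAs library than in any untreated one and rose by 0.36 in log2 (SE 0.10, limma adjusted p = 0.017). The call was lost without untreated replicate 1 (adjusted p = 0.0579) or 3 (0.0617), and with quantile normalization the difference was 0.17 (adjusted p = 0.255). Quantile normalization gives each library the same set of values, so for a gene this high it compares ranks rather than amounts.

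Chgb, which encodes the related chromogranin B, had 557704 to 629636 normalized counts in untreated libraries (median 608953) and 568882 to 641107 in iAs libraries (median 613181). The groups overlapped, and the difference of 0.03 in log2 (SE 0.09, 95% interval -0.16 to 0.22) was not called (limma adjusted p = 0.83). Its sign changed with the scaling, to -0.14 with quantile normalization and -0.01 after rescaling to equal totals. The first of these again compares ranks rather than amounts. The ratio of Chga to Chgb was 0.995 to 1.28 in untreated and 1.31 to 1.51 in iAs libraries. The ranges did not overlap, and the group means differed by 0.33 in log2 (two-sided exact permutation p = 0.0159, adjusted p = 0.0198 over 5 ratios).

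Scg2, the gene of secretogranin II and of the peptide secretoneurin, had 78383, 75026, 79446 and 69233 normalized counts in untreated replicates 1 to 4. Its values were 54234, 46974, 57920, 64971 and 64540 in iAs replicates 1 to 5. The iAs libraries were all lower and were more spread, with a coefficient of variation of 13.0% against 6.09%. Scg2 fell by 0.40 in log2 (SE 0.09, limma adjusted p = 0.0073).

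Scg3, the gene of secretogranin III, which binds chromogranin A and cholesterol-rich granule membrane, had 52275, 48401, 52638 and 54328 normalized counts in untreated replicates 1 to 4. In iAs replicates 1 to 5 it had 32973, 35798, 34413, 38282 and 37700. All iAs libraries lay well under the untreated ones. Scg3 fell by 0.54 in log2 (SE 0.06, limma adjusted p = 7.4e-05), to 0.690 times the untreated level.

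Chga and Scg3, which encode binding partners, thus moved apart. Their ratio was 11.9 to 15.6 in untreated and 21.9 to 28.0 in iAs libraries. The log2 difference of 0.89 was the largest of the 5 ratios (two-sided exact permutation p = 0.0159, adjusted p = 0.0198). The p-value was fixed in advance, because Chga was higher and Scg3 lower in each iAs library than in any untreated one. It adds no evidence to those results.

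Ptprn had 77317, 77928, 77310 and 74899 normalized counts in untreated replicates 1 to 4 and 43342, 43597, 42404, 47874 and 47019 in iAs replicates 1 to 5. The iAs libraries lay far under the untreated ones, and both groups were tight. Ptprn fell by 0.78 in log2 (SE 0.05, limma adjusted p = 3.7e-06), from 76864 ± 1341 (SD, n = 4) to 44847 ± 2433 (SD, n = 5), or 0.583 times the untreated level.

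Ptprn2, which encodes phogrin, the paralogue of IA-2 on the same membrane, had 35519 to 37194 normalized counts in untreated and 31443 to 34843 in iAs libraries. These ranges did not overlap, yet its log2 difference of -0.11 was not called (SE 0.05, limma adjusted p = 0.099), and it passed after rescaling to equal totals (-0.15, adjusted p = 0.017) and with quantile normalization (-0.17, adjusted p = 0.0098). The ratio of Ptprn to Ptprn2 was 2.07 to 2.19 in untreated and 1.32 to 1.38 in iAs libraries. It differed by -0.66 in log2 (two-sided exact permutation p = 0.0159, adjusted p = 0.0198 over 5 ratios), so the paralogues changed unequally.

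The called directions were the same within each ending of the library code. This could not have come out otherwise, since the groups did not overlap for any called granule gene, and it is no separate support. Among libraries ending in 52 (2 untreated, 3 iAs) the log2 differences were -0.75 for Ptprn, -0.53 for Scg3, -0.39 for Pcsk2, -0.37 for Scg2, -0.24 for Cpe, 0.29 for Scg5 and 0.44 for Chga. The other endings hold 1 library per group. Between iAs replicate 3 and untreated replicate 2 the differences were -0.88 for Ptprn, 0.31 for Chga and 0.45 for Scg5. Between iAs replicate 2 and untreated replicate 4 they were -0.78, 0.26 and 0.19. What the endings stand for is not given in the sources used here.

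The genes nearest to the convertases in profile were found by the root mean square distance between log2 values over the 9 libraries, after subtracting each gene's mean, among 10836 other genes with a mean of at least 100. Yipf2, Nucb1 and Dact2 lay nearest to Pcsk2, at distances of 0.036, 0.042 and 0.048. Nucb1 encodes a Golgi calcium-binding protein and differed by -0.38 in log2, Yipf2 by -0.47 and Dact2 by -0.45. Cyp46a1, a brain cholesterol hydroxylase, Slx4 and Camta2 lay nearest to Pcsk1, at 0.061, 0.073 and 0.090. The 3 differed by -0.05 to -0.04 between the groups, so their likeness to Pcsk1 lies in the spread within groups.

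Of 19 other tested processing enzymes of the secretory pathway 3 rose and 3 fell, with a median log2 difference of 0.02. Here and in the lists that follow, the counts stand beside 15.1% of all genes that rose and 14.9% that fell, no list test was made, and nothing particular to a list follows from its count. With the library code ending as a factor 5 of these enzymes rose. Pam, which amidates the ends of peptides and sits in the granule membrane, had 48251 to 66350 normalized counts in untreated and 26264 to 40793 in iAs libraries, without overlap, and fell by 0.83 in log2 (SE 0.14, limma adjusted p = 0.0010). Ctsl, a cysteine protease that also cuts prohormones (-0.72), and Qpct, which forms pyroglutamate at peptide ends (-0.57), fell as well. The constitutive convertase gene Pcsk6 (0.90), the oxidase gene Ero1b, which helps proinsulin fold (0.53), and the tyrosine sulfotransferase gene Tpst1 (0.23) rose. Furin, the convertase of the Golgi network, had 8035 ± 167 (SD, n = 4) and 8150 ± 390 (SD, n = 5) normalized counts and was not called (0.02, limma adjusted p = 0.80).

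Among 18 other granule proteins 2 rose and 4 fell (median -0.04; 4 rose without iAs replicate 3, with array weights or with the library code ending as a factor). Vgf, a granin-like precursor, had 64186 to 79842 normalized counts in untreated and 48099 to 54184 in iAs libraries and fell by 0.44 in log2 (SE 0.07, limma adjusted p = 9.4e-04). The electron carrier gene Cyb561, which serves Pam (-0.60), and the nesfatin precursor gene Nucb2 (-0.34) fell, as did the vesicle gene Sv2a (-0.68), which was named after its value was seen to complete the count. Vamp2, the granule SNARE gene (0.29), and the monoamine carrier gene Slc18a1 (0.91) rose. Slc30a8, the zinc carrier of insulin granules, differed by 0.16 and was not called (limma adjusted p = 0.074), and it passed when iAs replicate 1 (adjusted p = 0.0388) or iAs replicate 3 (0.0404) was left out.

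The vacuolar proton pump, whose acid the convertases need, was lower in many subunits. Of 23 tested genes of the pump and its partners 13 fell and 0 rose (median log2 difference -0.34). The 13 falls ran from -0.90 to -0.25. The other 10 were not called, among them the subunit genes Atp6v1a (-0.04) and Atp6v1b2 (-0.02; limma adjusted p = 0.61 and 0.86). Rnasek, a pump-associated gene, fell by 0.69, the membrane subunit gene Atp6v0a1 by 0.44 (28158 to 20703 normalized counts on average) and Atp6v0d1 by 0.44. Leaving out 1 library gave 13 or 14 falls.

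Of 28 tested genes of granule formation and sorting 3 rose and 3 fell (median -0.04). There were 5 rises without untreated replicate 2, and 5 falls after rescaling to equal totals, with quantile normalization or with array weights. The trans-Golgi kinase genes Prkd3 (0.58) and Prkd2 (-0.53) went in opposite directions. Sorcs2 (0.31) and Pick1 (0.19) rose, and the sorting genes Vps53 (-0.22) and Gga2 (-0.21) fell. The call of Pick1 was lost when untreated replicate 1, 3 or 4 was left out, or iAs replicate 1, 2 or 3 (adjusted p between 0.0582 and 0.0852).

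**Figure D4:**
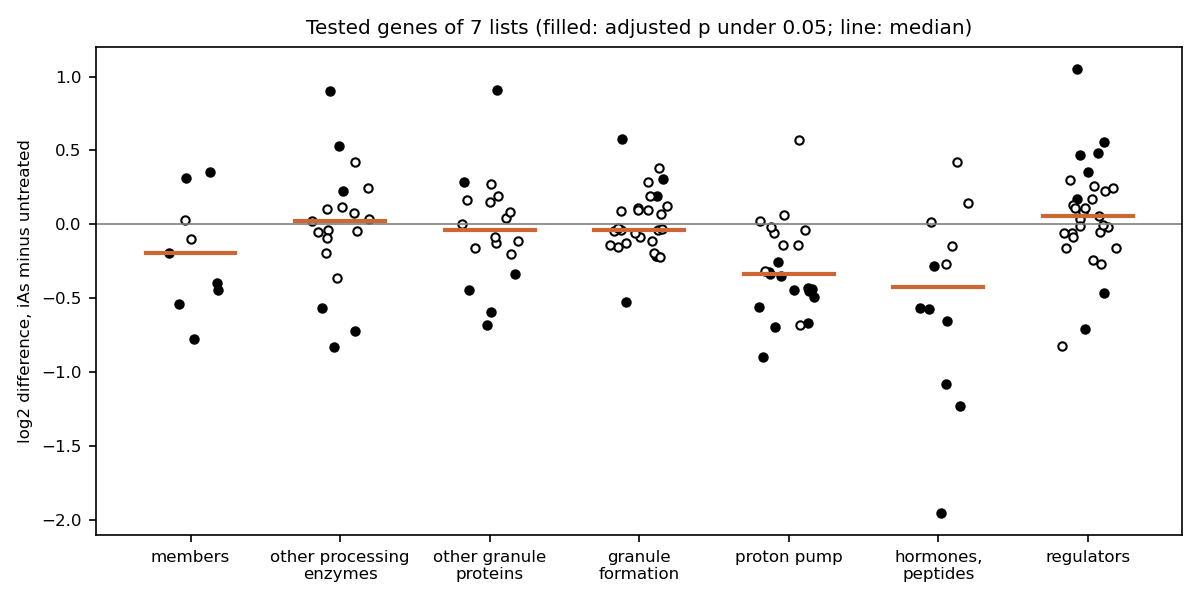
Log2 difference (iAs minus untreated) of the tested genes of 7 lists; each point is a gene, filled where its adjusted p is under 0.05, and the line is the list's median. The proton pump list has 13 filled points, all under 0, and the 10 named granule genes and the other lists of enzymes and granule proteins have filled points on both sides.

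The substrates of these enzymes were measured beside them. Ins1 (1508062 ± 216854 against 1811311 ± 252883 normalized counts), Ins2 and Iapp, the islet amyloid precursor gene, differed by -0.27, 0.02 and -0.15 in log2 and were not called (limma adjusted p = 0.20, 0.95 and 0.36). Ins1 and Ins2 are near-identical copies, and how reads were divided among the pair is uncertain. Of 12 tested hormone and peptide genes 7 fell and 0 rose, with a median of -0.42. Leaving out untreated replicate 4 gave 3 falls, and leaving out untreated replicate 3, iAs replicate 3 or iAs replicate 5 gave 4. There were also 4 falls in limma without its trend option and 3 among libraries ending in 52. Gcg, the proglucagon gene, fell by 0.65, Cartpt by 1.23 and Pomc by 0.57.

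Of 31 tested regulators of granule genes 6 rose and 2 fell (median 0.05), and 4 fell with the library code ending as a factor. Crem, a factor of the cyclic AMP response element, fell by 0.71 and Nkx6-1 by 0.46, while the REST cofactor gene Rcor2 (1.05), Myt1 (0.55) and Hdac2 (0.35) rose. The other 23 were not called. Among these were Atf1 (-0.01), Crtc2 (-0.06), Rcor1 (0.11) and Hdac1 (0.05), with limma adjusted p = 0.90, 0.50, 0.34 and 0.42. Creb1, which encodes a factor of the cyclic AMP response element, had 143 to 181 normalized counts in untreated and 193 to 287 in iAs libraries (0.47, limma adjusted p = 0.027), and its call was lost when untreated replicate 1, 2 or 4 was left out, or iAs replicate 1 or 5 (adjusted p between 0.0506 and 0.0691). Rest, the gene of the repressor REST, was at 7.74 to 30.1 normalized counts in untreated and 12.2 to 29.6 in iAs libraries. Neurod1 (-0.06), Pax6 (-0.09) and Nkx2-2 (0.13) were not called (limma adjusted p = 0.47, 0.52 and 0.27). Whether any of these bears on the granule genes was not tested.

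Markers of other cells were measured because they could move with the granule genes. In bulk RNA, fewer cells of a type and less RNA per cell cannot be told apart. Of 10 tested beta cell markers 1 rose, the glucose carrier gene Slc2a2 (0.53), and 2 fell, Nkx6-1 and the low Ucn3 (22.5 against 6.19 normalized counts; -1.95, limma adjusted p = 0.033, and lost when untreated replicate 3 or 4 was left out, or iAs replicate 2, 3 or 4). Of 8 markers of other islet cells Gcg alone passed the limit on low values, and the list's summed level was 80263 to 133489 normalized counts in untreated and 52207 to 81098 in iAs libraries. Of 7 tested hepatocyte genes 0 rose and 3 fell, Fgb (-1.34), Ass1 (-0.45) and Apob (-0.83, not called without untreated replicates 2 or 4), with sums of 3544 to 4037 and 2695 to 3160. Of 11 acinar and duct genes 6 were at 0 in all libraries, Sox9 rose (2.40) and Rbpjl fell (-0.57, adjusted p = 0.035), with sums of 197 to 309 and 468 to 638. Of 6 tested fibroblast, endothelial and immune genes 3 fell, Cd74 (-3.05), Thy1 (-0.54) and Col1a1 (-1.98), and Cd68 rose (0.83), while Ptprc was at 0. Their summed level was 9727 to 13256 in untreated and 6183 to 8975 in iAs libraries. Nearly all of it was Thy1, with means of 11389 in untreated and 7836 normalized counts in iAs libraries. The part of other cells in the values of the granule genes was not tested. The calls of Rbpjl, Col1a1 and Cd68 were each lost in most leave-one-out fits.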

How the data were processed

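The mRNA of 9 libraries (4 labelled untreated, 5 labelled iAs) was analysed from 1 deposited table. Its values are a signal that the authors made: counts per gene normalized with DESeq2, as the deposited table is named. Named in the submitters' processing notes are STAR, Salmon, DESeq2 and the rn6 build, with no versions or roles. Whole reads were not recovered. The library code in each sample's description assigned the columns; in 4 libraries the title carries the code of another library of its group. No pair of columns held identical values.

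The fit was limma with its trend option (version 3.58.1, R 4.3.3) to log2(value + 1) of the 14410 genes with a mean of at least 10, with Benjamini-Hochberg adjustment over all of them and a threshold of 0.05. A log2 difference understates the change of low genes. The script was tested on simulated data. The 5 ratios used a two-sided exact permutation test over libraries, and a planned sixth was left out because Pcsk1n was listed at 0. The members and lists were chosen with earlier results of these data known. Named genes were the members, fixed substrates, enzymes and regulators, up to 3 rises and 3 falls per list, by smallest adjusted p, and the 3 genes nearest to each convertase. Sv2a, Mt1, Gclc, Txnrd1, Slc7a11, Atp6v1a, Atp6v1b2, Atf1, Crtc2, Rcor1 and Hdac1 lie outside this rule and were named after their values were seen. Alternatives (20 settings) covered pseudocount, filter, scaling, limma options, blocks and left-out libraries.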

Additional observations from a re-analysis of the deposited data

Results flagged for a closer look

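In 4 of 52 groups of values (26 genes in 2 groups each) the highest library stood apart from the rest of its group by more than Dixon's 95% limit, where chance flags about 1 in 20. Pcsk1n was at 46.1 normalized counts in untreated replicate 2 and at 0 in the other libraries of that group. Gcg was at 133456 in untreated replicate 4 and between 80235 and 86935 in the others. Slc30a8 was at 13021 in untreated replicate 4 and between 12178 and 12316 in the others. Alb was at 2.01 in iAs replicate 5 and at 0 in the others. The rate of 1 in 20 does not hold for Pcsk1n and Alb, where a single library above 0 passes by construction. Groups at 0 throughout could not be flagged.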

How the results depend on the processing

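The calls of Ptprn, Scg3, Pcsk2 and Scg2 held in all 20 alternative settings, with log2 differences of -0.84 to -0.75, -0.62 to -0.51, -0.53 to -0.39 and -0.49 to -0.32. Without a filter on low values, which tests more genes, Cpe (-0.19, adjusted p = 0.0726) and Chga (0.36, 0.114) lost their calls and 1 granule gene was called higher. With quantile normalization, where genes as high as Chga and Chgb are compared by rank, Chga (0.17) lost its call, again leaving 1. Chgb (-0.14) and Ins2 (-0.04) reversed in that setting. Rescaling to equal totals reversed Chgb (-0.0053), Furin (-0.014) and Ins2 (-0.018), and array weights reversed Pcsk1 (0.00069), Chgb (-0.00054) and Rest (-0.050). With the libraries whose code ends in 52 alone, Cpe (-0.24), Scg5 (0.29) and Chga (0.44) lost their calls, 0 granule genes were called higher, and Chgb (-0.0024), Neurod1 (0.049), Pax6 (0.0085) and Rest (-0.19) reversed. The cause was not tested.

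Leaving out 1 library at a time gave 1 to 2 granule genes higher and 4 to 5 lower, and differences of -0.18 to 0.021 for Pcsk1, -0.22 to -0.17 for Cpe, 0.32 to 0.41 for Chga and -0.0073 to 0.055 for Chgb. Pcsk1 reversed without untreated replicate 2, Chgb without untreated replicate 4, and Furin without iAs replicate 4 (range -0.0016 to 0.040). Ins2 (range -0.089 to 0.15) reversed without untreated replicate 1 (-0.089) or 3 (-0.076) or iAs replicate 1 (-0.045), 2 (-0.031) or 3 (-0.038).

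Libraries with the same replicate number did not deviate together (r = 0.031, -0.037, 0.008 and -0.041 for numbers 1 to 4). These values show no pairing by number, but they cannot exclude one. A replicate block over 4 pairs gave 1351 genes higher and 1410 lower, against 2181 and 2140 without it, and 1 granule gene higher, with Cpe (-0.20) and Chga (0.38) no longer called. The ratios Pcsk2/Scg5 (-0.76), Chga/Chgb (0.35), Chga/Scg3 (0.93) and Ptprn/Ptprn2 (-0.67) had p = 0.125 under the exact permutation test within pairs, the smallest it can give, and in libraries ending in 52 they were -0.68, 0.44, 0.98 and -0.66 with an exact p of 0.2, also the smallest. Both p-values were fixed in advance, since these ratios did not overlap between the groups over all libraries. Raw depth is not known, so no limit from counting can be given.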
